A study of Mus musculus with 9 samples.

Results

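The 41 keratin genes among the 29069 genes measured in mouse embryonic stem cells (mESC) were compared between ground-state medium (GS), differentiation medium (DM) and differentiation medium with a nitric oxide donor (NO). A gene was taken as a keratin gene when the table named it Krt followed by a number and gave it a protein-coding biotype. All samples were total RNA of D3 mESC, an established line adapted to culture without feeder cells, with 3 replicates per medium and 24 h in that medium. GS was a serum-free N2B27 medium with the MEK inhibitor PD0325901 at 1 μM, the GSK-3 inhibitor CHIR99021 at 3 μM and leukaemia inhibitory factor (LIF) at 20 ng/mL. DM was DMEM with 10% fetal bovine serum and neither the inhibitors nor LIF. NO was DM with DETA/NO, which sets nitric oxide free in solution, at 250 μM. The comparison of NO with DM therefore differed in the donor alone, whereas GS differed from both in basal medium, serum, inhibitors and LIF. RNA came from 1 dish per sample, and the labels do not say whether dishes of a medium were independent experiments. The p-values therefore measure the spread between dishes. That spread was estimated from all media together, so it is not the spread of the compared media alone, and the NO dishes also entered DM vs GS.

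Keratins are the intermediate filament proteins of epithelial cells. Acidic type I and basic type II keratins assemble in pairs, and the genes lie in a type I cluster and a type II cluster, with the type I gene Krt18 placed at the edge of the type II cluster beside its partner Krt8. Krt8 and Krt18, with Krt19 and Krt7, are the keratins of simple, single-layered epithelia and are the first to appear in the embryo. Krt5, Krt14 and Krt15 belong to the basal layer of stratified epithelia, Krt10 to the layers above, Krt13 to internal stratified linings, and Krt16 and Krt17 to activated and appendage-forming epidermis. Other keratin genes serve the root sheath and the shaft of hair.

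The values are normalised read counts, that is reads per gene divided by a size factor of the library and rounded. Of the 41 genes, 14 had a mean above 5 over the 9 libraries and were tested, and 27 lay below that minimum. By class, 5 of 6 simple epithelial keratins were tested, 6 of 18 stratified epithelial keratins, 1 of 7 root sheath keratins, none of 8 hair and nail shaft keratins, and both Krt42 and Krt222, which were placed in no class. The estimated number of assigned reads per library ranged from 14317377 to 27092009, so that 1 read was worth between 0.70 and 1.32 normalised counts. The pluripotency genes were high in every library, with the summed level of 10 such genes between 59927 and 118112. NO replicate 2 stood apart from all other libraries. On the first principal component over all tested genes it lay at 131.2, the other NO replicates at 25.9 and 67.1, and the GS and DM libraries between -49.1 and -26. For the keratins called in a comparison that involves NO, values without it are given as well.

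Type I keratin genes of the table lay on chromosome 11, apart from Krt18, and type II genes on chromosome 15 (GRCm38). The 250 bases before the RefSeq start were read for the genes with an entry, 9 of the 14 tested keratins. Krt13 had 2 entries, which gave 10 in all. Krt15, Krt16, Krt17, Krt19 and Krt222 were not among them. Printed here are the 5 tested genes with an entry whose 3 NO values all lay above every GS and DM value, namely Krt7 (chr15:101412153-101412401, plus strand), Krt18 (chr15:102027966-102028179, plus strand), Krt23 (chr11:99493138-99493370, minus strand), Krt5 (chr15:101712906-101713155, minus strand) and Krt13 (chr11:100121567-100121816, minus strand, the entry at the annotated start of the gene). Bases that GENCODE M21 places in an exon of a coding transcript are left off. The sequences are from RefSeq on GRCm38.p6 and run 5′ to 3′ on the strand of the gene. Capitals mark matches on either strand to 3 short motifs, the E-box CACCTG, which reads CAGGTG on the opposite strand, the AP-2 type palindrome GCCNNNGGC and the AP-1 type palindrome TGANTCA.
Krt7: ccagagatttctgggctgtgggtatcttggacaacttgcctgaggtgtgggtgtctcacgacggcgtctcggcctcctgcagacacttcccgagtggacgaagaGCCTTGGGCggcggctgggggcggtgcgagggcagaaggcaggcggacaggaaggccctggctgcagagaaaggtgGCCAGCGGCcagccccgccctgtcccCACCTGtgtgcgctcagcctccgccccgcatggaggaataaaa
Krt18: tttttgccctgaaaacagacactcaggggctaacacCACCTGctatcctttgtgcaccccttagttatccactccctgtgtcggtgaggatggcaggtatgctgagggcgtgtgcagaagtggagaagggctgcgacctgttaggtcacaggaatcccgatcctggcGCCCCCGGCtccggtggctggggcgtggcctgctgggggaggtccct
Krt23: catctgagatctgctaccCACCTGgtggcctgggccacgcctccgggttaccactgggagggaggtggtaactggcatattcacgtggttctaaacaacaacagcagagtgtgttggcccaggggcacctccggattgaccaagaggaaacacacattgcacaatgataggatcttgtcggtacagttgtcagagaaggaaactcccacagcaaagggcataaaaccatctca
Krt5: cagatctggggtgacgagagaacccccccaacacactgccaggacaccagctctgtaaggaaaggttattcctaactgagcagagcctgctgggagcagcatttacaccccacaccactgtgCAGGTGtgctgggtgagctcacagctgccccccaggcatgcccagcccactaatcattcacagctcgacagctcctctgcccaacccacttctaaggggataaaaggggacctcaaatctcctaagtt
Krt13: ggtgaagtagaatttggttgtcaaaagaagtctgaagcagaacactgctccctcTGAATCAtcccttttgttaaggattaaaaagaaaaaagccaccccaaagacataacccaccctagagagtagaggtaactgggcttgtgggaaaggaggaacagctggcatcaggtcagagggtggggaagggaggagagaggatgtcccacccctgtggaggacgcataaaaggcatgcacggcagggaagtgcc

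CACCTG was present in 6 of the 10 entries of tested keratins and in 11 of the 30 entries of all keratins, against 17.2% of 32851 promoters of the same length. The 6 entries of tested keratins belonged to Krt7, Krt18, Krt23 and Krt5 and also to Krt8 and Krt10, whose levels did not pass the test in any comparison. Krt5 and Krt23 were tested only through their NO values. In Krt7 CACCTG lay at -44 to -39 from the RefSeq start. In Krt8 it lay at -111 to -106, among bases that GENCODE M21 places in an exon of a coding transcript. GCCNNNGGC was present in 3 of the 10 entries, those of Krt7 and Krt42 with a pair of matches each and that of Krt18. It was present in 4 of the 30 entries of all keratins, against 13.7% of all promoters. TGANTCA was present only in both Krt13 entries, against 6.75% of all promoters. Among the 10 entries TATAAA was present only in those of Krt10 and Krt28, but 13 of the 30 entries of all keratins held it, against 12.4% of all promoters. None of the matches in the printed stretches overlapped another. A match gives letters in a window and is no measurement of binding.

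The question of the NO vs DM comparison is what the donor changed in cells otherwise released from GS in the same way. In NO, 7 keratins rose above DM and none fell. These were Krt19, Krt7 and Krt23 of simple epithelia and Krt15, Krt5, Krt13 and Krt16 of stratified epithelia. In bulk RNA, more cells of a type and more RNA per cell cannot be told apart. Calls required an adjusted p under 0.05 (limma, Benjamini-Hochberg over 18156 genes) and a 2-fold change, and 6.78% of all tested genes were called higher and 1.77% lower in this comparison. Krt5, Krt15 and Krt23 had a mean under 5 over the GS and DM libraries and were tested only through their NO values, so a count over all 14 genes partly reflects that minimum. Among the 11 keratins whose mean over GS and DM alone was above 5, 4 were called higher (Krt19, Krt7, Krt13 and Krt16) and the median log2 fold change was 0.47. Of the 17521 genes with such a mean, 5.78% were called higher, with a median of -0.019. The count of 4 fell to 2 without NO replicate 2 (Krt19 and Krt7), to 2 without DM replicate 2 or 3 and to 1 (Krt7) without NO replicate 3, without DM replicate 1 or with only the 6 NO and DM libraries in the fit. There were 6 calls without NO replicate 1, with Krt18 added as higher and Krt222 as lower.

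Krt19, a type I keratin of simple epithelia and ducts, was the keratin with the highest value of the series. Its normalised counts were 163, 165 and 148 in the DM replicates and 265, 2977 and 794 in the NO replicates, with 183, 101 and 127 in GS. The 3 NO values lay above all others, and NO replicate 2 lay far above the other NO replicates. The log2 fold change of NO over DM was 2.43 ± 0.63 (SE, adjusted p = 0.0269). Without NO replicate 2 it was 1.53 ± 0.38 (adjusted p = 0.0348). The call ended when DM replicate 1, 2 or 3 or NO replicate 3 was left out (adjusted p from 0.0662 to 0.0709), with only the 6 NO and DM libraries in the fit (0.0713), without the mean-variance trend (0.0755) and with precision weights per value (0.0623).

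Krt7, a type II keratin of simple glandular epithelia and of trophoblast, had 12, 11 and 15 normalised counts in DM and 65, 484 and 146 in NO. In GS it had 15, 4 and 4. DM and GS overlapped, and each NO replicate was above both. The log2 fold change over DM was 3.63 ± 0.66 (adjusted p = 0.00682) and 2.86 ± 0.56 without NO replicate 2 (adjusted p = 0.0113). This call held with each of the 9 libraries left out in turn.

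Krt23, a type I keratin described in simple epithelia of the gut and liver, was listed at 0 in all 3 DM libraries and at 0, 1 and 1 in GS. In NO it had 4, 69 and 39 normalised counts. Against a floor of 3 reads per DM library, NO was at least 14.2-fold higher, and at least 8.2-fold higher without NO replicate 2. The ratio of NO to GS, which rests on 2 reads in GS, was 42.5 with an exact interval of 11.4 to 356 that covers counting error only, and 23.1 (5.94 to 198) without NO replicate 2. The limma log2 fold change over DM was 4.59 ± 0.89 (adjusted p = 0.0088) and 3.82 ± 0.94 without NO replicate 2 (adjusted p = 0.0317).

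Krt8 and Krt18 are the partners that fill the simple epithelial filament, and neither passed the test in NO vs DM. Krt18 had 152, 171 and 129 normalised counts in DM and 190, 604 and 301 in NO, without overlap. Its log2 fold change was 1.12 ± 0.35 and missed the threshold (adjusted p = 0.0522), and without NO replicate 2 it was 0.67 ± 0.26 (adjusted p = 0.147). With the replicate number as a block it passed (adjusted p = 0.0488), and the number of keratins called higher went from 7 to 8. Krt8 had 629, 559 and 801 in DM and 769, 962 and 955 in NO, where the lowest NO value fell within the DM range. The log2 fold change of Krt8 was 0.44 ± 0.16 (adjusted p = 0.0845). The difference between the changes of Krt18 and Krt8 was not tested. Of the 50-base windows of the longest Krt8 transcript, 29.7% were shared with other genes, chiefly the pseudogene Krt8-ps, and reads that matched more than 1 place did not enter the counts.

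Among stratified keratins Krt15, a type I keratin of basal cells, went from 2, 1 and 0 normalised counts in DM to 34, 455 and 139 in NO. GS had 0, 0 and 1. Every NO library was thus far above the 6 others, the lowest NO value being 34 and the highest of the others 2. The ratio of NO to DM, resting on 3 reads in DM, was 202 with a counting interval of 68.9 to 985, and 83.3 (28.0 to 408) without NO replicate 2. The limma log2 fold change was 6.17 ± 0.83 (adjusted p = 0.00227) and 5.27 ± 0.79 without NO replicate 2 (adjusted p = 0.00326). Precision weights per value took the adjusted p of Krt15 to 0.0506.

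Krt5, the type II keratin of basal cells, was listed at 0 in all 3 GS libraries and at 0, 0 and 5 in DM. NO had 26, 215 and 72 normalised counts. NO was at least 31.8-fold above the floor of 3 reads per GS library, and at least 14.9-fold without NO replicate 2. The log2 fold change over DM was 5.37 ± 0.86 (adjusted p = 0.00406), and 4.61 ± 0.89 without NO replicate 2 (adjusted p = 0.0109). Krt5 and Krt15 kept their calls with each library left out in turn, as did Krt23.

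Krt13 and Krt16 changed less. Krt13 had 14, 23 and 15 normalised counts in DM and 31, 173 and 102 in NO, a log2 fold change of 2.21 ± 0.52 (adjusted p = 0.0191). Krt16 had 8, 5 and 12 in DM and 22, 52 and 27 in NO, a log2 fold change of 1.87 ± 0.46 (adjusted p = 0.0221). For both genes the NO values lay above all DM and GS values. Without NO replicate 2 neither call held, at 1.68 ± 0.48 for Krt13 (adjusted p = 0.0574) and 1.51 ± 0.47 for Krt16 (adjusted p = 0.079). Both calls were also lost without DM replicate 1 and without NO replicate 3, that of Krt13 without DM replicate 3 and that of Krt16 without DM replicate 2. Of the Krt16 exon length, 37.6% was in windows shared with Gm11597, Krt14 or other genes, so its level is uncertain.

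**Figure D1:**
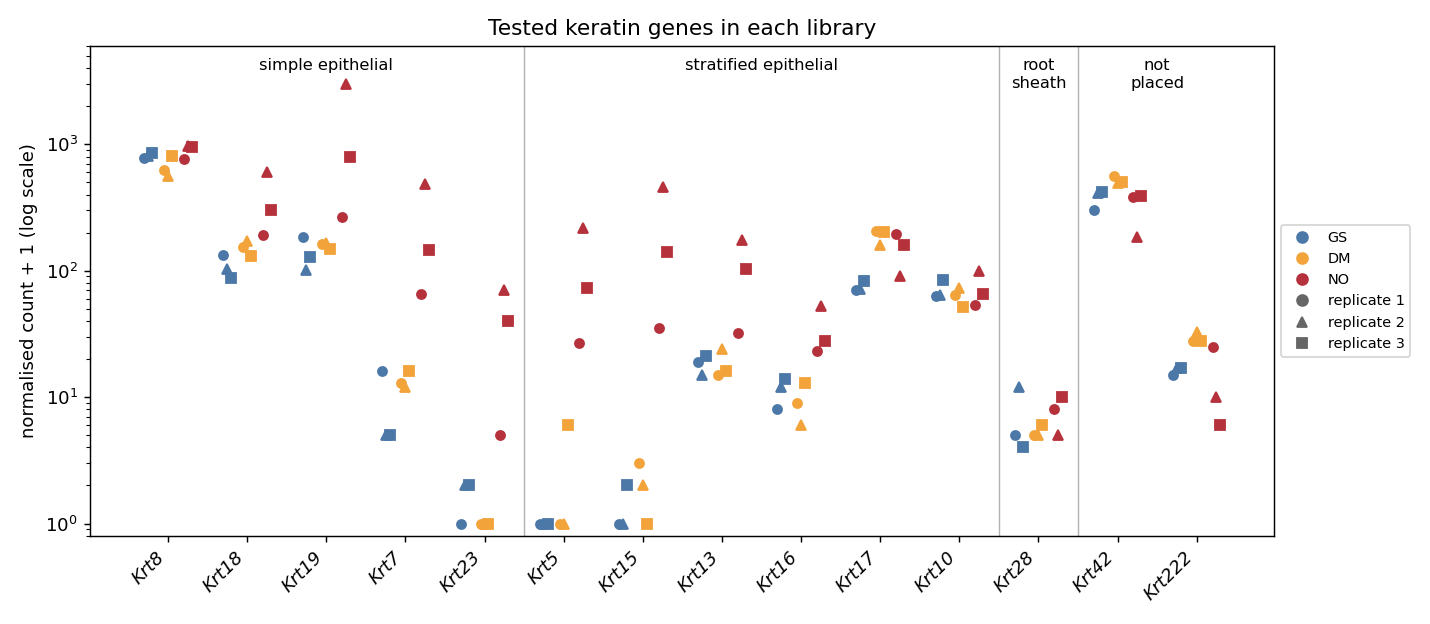
Normalised counts plus 1 on a log axis for the 14 tested keratins in each of the 9 libraries, with colour for the medium (GS blue, DM orange, NO red) and symbol for the replicate number. For Krt19, Krt18, Krt7, Krt23, Krt5, Krt15, Krt13 and Krt16 the 3 NO points lie above all GS and DM points and NO replicate 2 is the highest and NO replicate 1 the lowest of the 3.

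The other tested keratins of the stratified and root sheath classes did not pass the test in NO vs DM. Krt17, which pairs with type II keratins in hair follicles and healing epidermis, had 206, 158 and 202 normalised counts in DM and 193, 89 and 160 in NO (log2 fold change -0.42 ± 0.27, adjusted p = 0.322, and -0.09 ± 0.21 without NO replicate 2). Krt10, the type I keratin of differentiated epidermal layers, had 63, 72 and 51 in DM and 53, 98 and 65 in NO (0.18 ± 0.28, adjusted p = 0.70). Krt28 of the root sheath stayed between 3 and 11 in all libraries (0.47 ± 0.55, adjusted p = 0.599). The DM and NO values of these 3 genes overlapped.

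Krt42 and Krt222, both type I, were the keratins with every NO value below every DM value. Krt42 had 563, 493 and 500 normalised counts in DM and 385, 183 and 391 in NO, with 300, 409 and 419 in GS. Its log2 fold change over DM was -0.78 ± 0.27 (adjusted p = 0.0715), or -0.42 ± 0.17 without NO replicate 2. Krt222 had 27, 32 and 27 in DM and 24, 9 and 5 in NO, with 14, 16 and 16 in GS, a log2 fold change of -1.37 ± 0.47 (adjusted p = 0.0738), or -1.27 ± 0.52 without NO replicate 2. Neither passed with or without that library. By the same count, 8 of the 14 keratins had every NO value above every DM value. The 8 include Krt5, Krt15 and Krt23, which were tested only through their NO values, so this count partly reflects the minimum mean. Over all tested genes 18.1% had all NO values above and 15.3% all NO values below the DM values.

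In the NO vs GS comparison, which spans the medium and the donor together, 8 keratins rose and none fell. Krt18 joined the 7 genes named above. Of all tested genes, 10.1% were called higher in NO than in GS and 1.64% lower. The 3 NO values of 9 of the 14 keratins lay above the 3 GS values, against 20.9% of all tested genes, the ninth being Krt17. Krt5, Krt15 and Krt23 are among the 9 and were tested only through their NO values. Among the 11 keratins with a mean above 5 over GS and DM, 5 were called higher (Krt18, Krt19, Krt7, Krt13 and Krt16), against 8.82% of genes with such a mean. This count fell to 2 without GS replicate 2 (Krt18 and Krt7) and to 3 without NO replicate 3 (Krt18, Krt19 and Krt7). The GS values of Krt18 were 133, 102 and 86, and the log2 fold change was 1.62 ± 0.35 (adjusted p = 0.0081), or 1.18 ± 0.26 without NO replicate 2 (adjusted p = 0.0116).

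The log2 fold changes over GS were 6.70 ± 0.83 for Krt15 (adjusted p = 0.000676), 6.23 ± 0.86 for Krt5 (adjusted p = 0.00103) and 4.51 ± 0.66 for Krt7 (adjusted p = 0.00122). Krt23 followed at 3.92 ± 0.89 (adjusted p = 0.0104), Krt19 at 2.68 ± 0.63 (adjusted p = 0.0121) and Krt13 at 2.19 ± 0.52 (adjusted p = 0.0131). Krt16 was at 1.56 ± 0.46 (adjusted p = 0.0342), and its call was lost in 7 of 18 alternatives, namely without NO replicate 2 (1.20 ± 0.47, adjusted p = 0.123) or 3, without GS replicate 1, 2 or 3, with quantile normalisation (0.0945) and with no minimum mean (0.0669). When NO replicate 2 was left out, the log2 fold changes over GS were 5.80 ± 0.79 for Krt15, 5.47 ± 0.89 for Krt5, 3.74 ± 0.56 for Krt7, 3.16 ± 0.94 for Krt23, 1.78 ± 0.38 for Krt19 and 1.66 ± 0.48 for Krt13, all still called (adjusted p from 0.000965 to 0.0462). Krt17 passed the adjusted p but stayed under 2-fold (0.92 ± 0.27, adjusted p = 0.0354), and without NO replicate 2 it took the place of Krt16 among 8 calls, at 1.24 ± 0.21. Krt8, with values of 780, 802 and 852 in GS, differed from NO by 0.14 ± 0.16 (adjusted p = 0.587). Only 5 keratins were called without GS replicate 2 (Krt15, Krt18, Krt23, Krt5 and Krt7) and 5 without NO replicate 3 (Krt15, Krt18, Krt19, Krt5 and Krt7).

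The DM vs GS comparison spans the loss of the inhibitors and LIF together with the change of basal medium and the addition of serum, without the donor. Krt17 alone rose, from 69, 71 and 82 normalised counts in GS to 206, 158 and 202 in DM, without overlap. Its log2 fold change was 1.33 ± 0.27 (adjusted p = 0.0129), against 2.94% of all tested genes called higher in DM and 1.27% called lower. Leaving out GS replicate 1 or 2 or DM replicate 1 or 3 took its adjusted p to between 0.0504 and 0.0594, and quantile normalisation to 0.0639. Krt42 and Krt222 also had every DM value above every GS value, as 16.2% of all tested genes did, with log2 fold changes of 0.48 ± 0.27 (adjusted p = 0.354) and 0.86 ± 0.47 (adjusted p = 0.349). The remaining 11 tested keratins overlapped between DM and GS. The median log2 fold change of the 14 keratins was 0.36, beside -0.001 for all tested genes. DM serves as 1 side of this comparison and of NO vs DM, so the patterns of Krt17, Krt42 and Krt222 in both share the same DM libraries.

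**Figure D2:**
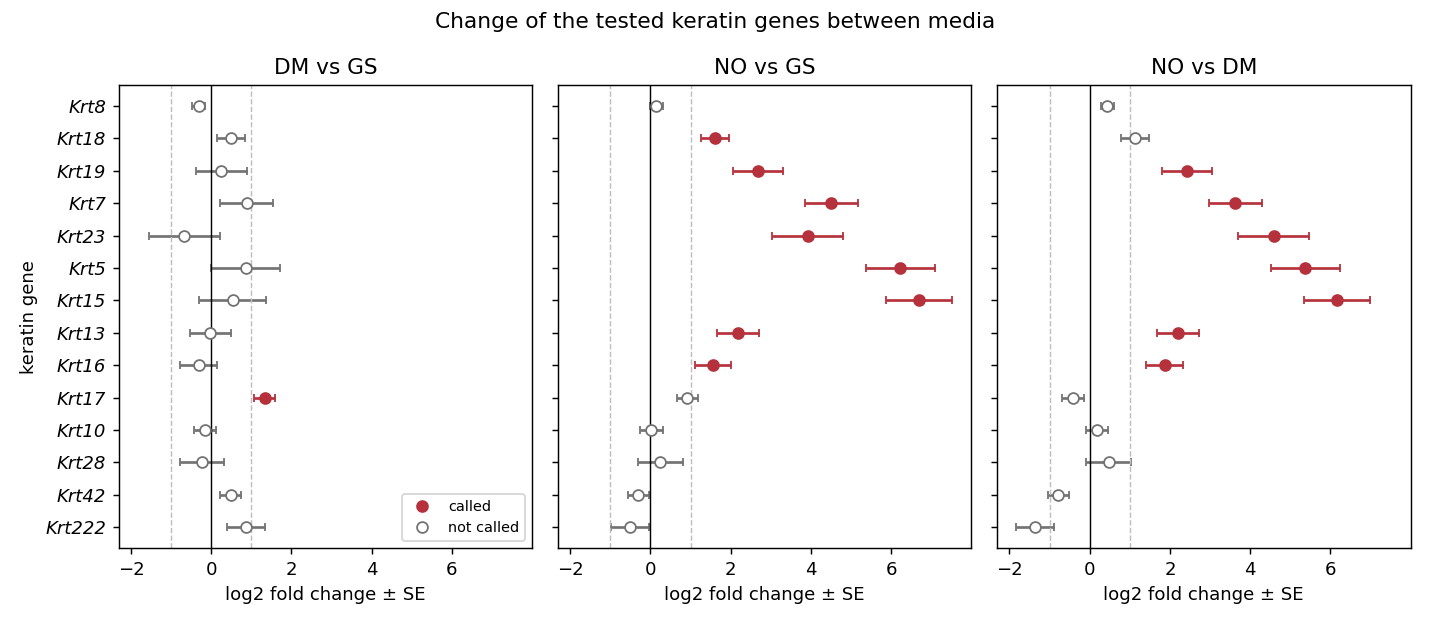
Log2 fold change ± SE of the 14 tested keratins in DM vs GS, NO vs GS and NO vs DM, from the fit over 9 libraries. Filled red points were called (adjusted p under 0.05 and beyond the dashed lines at a 2-fold change), namely Krt17 on the left, 8 genes in the middle and 7 on the right, all on the side of an increase.

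The NO replicates kept the same order in most keratins. Replicate 2 was highest, replicate 3 next and replicate 1 lowest in all 7 keratins called higher in NO than in DM, and in 10 of the 14 tested keratins. The same order held in 1101 of the 1231 genes called higher in NO than in DM (89.4%) and in 5210 of all 18156 tested genes (28.7%). The keratins thus followed the libraries in a way that other called genes did as well. For the pairs with the same number, the differences on the log2(value + 1) scale between NO and DM were 0.70, 4.17 and 2.42 for Krt19 and 2.34, 5.34 and 3.20 for Krt7 in replicates 1, 2 and 3.

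Because reads per gene grow with the length of a transcript, levels of different keratins were compared per kilobase of merged exons. Summed over all 41 genes, the keratin level was 864, 873 and 923 normalised counts per kilobase in GS and 1029, 945 and 1055 in DM. In NO it was 1136, 3391 and 1744, above DM in every library. No test was made on the sums. Krt8 made up 46.1, 46.9 and 47.1% of the sum in GS, 31.2, 30.2 and 38.8% in DM and 34.6, 14.5 and 28.0% in NO. Krt19 took 12.6, 47.3 and 24.5% in NO, and in NO replicate 2 it outweighed every other keratin.

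Simple epithelial keratins made up 68.5, 61.4 and 61.2% of the keratin level in GS, 50.2, 52.5 and 55.1% in DM and 59.9, 77.8 and 67.3% in NO. The share in DM lay below that in GS and NO in every library. Stratified keratins made up 10.4, 10.5 and 12.3% in GS, 17.5, 16.5 and 16.7% in DM and 19.1, 18.2 and 19.1% in NO. Their sum per kilobase was 90.18, 91.79 and 113.3 in GS, 179.8, 155.8 and 175.8 in DM and 216.5, 616.7 and 333.0 in NO. In DM most of it was Krt17, at 121.6 ± 17.2 normalised counts per kilobase (SD, n = 3), while in NO Krt15 had 118.5 ± 124.0, Krt17 94.99 ± 34.3 and Krt13 56.0 ± 39.0. Root sheath and shaft keratins were minor, at 13.7 and 15.5 per kilobase in NO replicate 2, where both were highest.

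The balance of both keratin types shifted towards type I. The summed type I level divided by the summed type II level was 1.14, 1.12 and 1.11 in GS, 2.15, 2.25 and 1.52 in DM and 1.71, 3.97 and 2.15 in NO. Each DM and NO library was above each GS library, and DM and NO overlapped. In DM the type I sum was 664.5 ± 34.0 per kilobase (SD, n = 3) against 469.5 ± 14.5 in GS, and the type II sum 345.3 ± 65.6 against 417.3 ± 17.5. Of the type I genes, Krt42 went from a mean of 213.2 per kilobase in GS to 294.0 in DM, and Krt17 from 47.7 to 121.6. Per kilobase, Krt8 exceeded its partner Krt18 by 4.3, 5.77 and 7.27 times in GS, 3.04, 2.4 and 4.56 times in DM and 2.97, 1.17 and 2.33 times in NO. Krt7, whose merged exons reach 7.049 kilobases through long alternative models, is understated per kilobase, which lowers the type II sum. Krt8 reads that fitted several places did not enter the counts, which lowers that sum as well. Both raise the ratio of type I to type II.

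**Figure D3:**
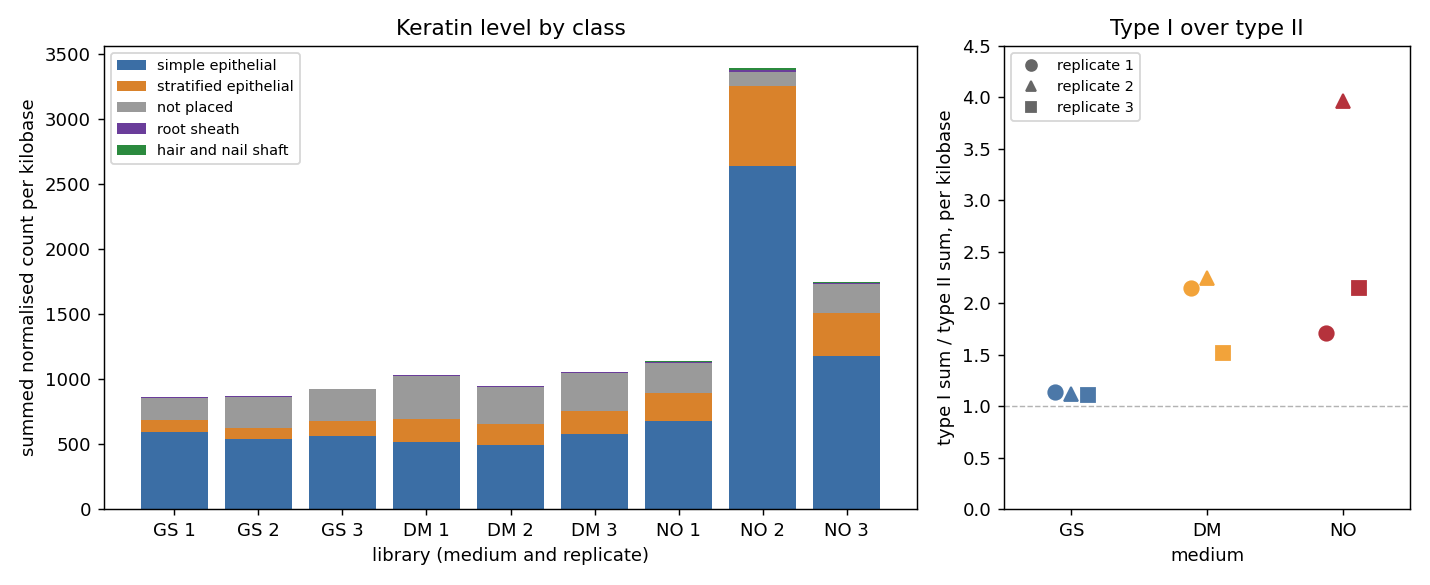
Left, summed normalised counts per kilobase of merged exons for the 41 keratins in each library, stacked by class from 0. Right, the type I sum over the type II sum in each library, with the dashed line at equal sums. The NO replicates reach 1136, 3391 and 1744 per kilobase, and the ratio is between 1.11 and 1.14 in GS and at least 1.52 in every DM and NO library.

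Partners of the stratified keratins were unequal as well. Krt14, the usual type I partner of Krt5, had 1, 19 and 0 normalised counts in NO, and 14.4% of its exon length was in windows shared with Krt16, Krt17 or other genes. In NO, Krt5 was at 47.5 ± 44.9 per kilobase and Krt14 at 3.79 ± 6.08, while Krt15 was at 118.5 ± 124.0 (SD, n = 3). Krt4, which pairs with Krt13 in internal linings, had 1, 15 and 8 normalised counts in NO, or 3.75 ± 3.28 per kilobase beside 56.0 ± 39.0 for Krt13. Krt1, the partner of Krt10, had 4, 5 and 1 in NO and at most 1 in the other libraries. Each of these pairs sets a keratin with a mean above 5 beside one under it, so the inequality partly reflects that choice. Krt5 and Krt15 passed this minimum only through their NO values.

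The 27 keratins below the minimum mean were near the floor in GS and DM, where their highest value was 6 (Krt79), and reached at most 19 in NO. Of these genes, 13 were listed at 0 in all 3 GS libraries, and 15 never exceeded 3 in any library. The highest values by class were 18 for Krt20 of simple epithelia, 19 for Krt14 of stratified epithelia, 10 for Krt71 of the root sheath and 13 for Krt36 of the hair shaft, each in NO replicate 2. Krt20, a keratin of intestinal epithelium, had 1, 18 and 7 in NO and at most 2 elsewhere. In 12 of the 27, the single highest value was in NO replicate 2. Krt12 (3, 13 and 13) and Krt71 (5, 10 and 8) had every NO value above all 6 others. Krt36 (4, 13 and 1) had every NO value above every DM value. Of the exon length of Krt12, 54.4% lies on A830036E02Rik, so that its reads cannot be assigned with certainty. With no minimum mean, 5 of the 27 were called higher in NO than in GS (Krt1, Krt12, Krt4, Krt71 and Krt79) and none in NO vs DM or DM vs GS. The GS values of these 5 were at most 1, and Krt79 had 2, 5 and 3 in NO. No share of equally low genes stands beside this count, so it is not read as a result about keratins. No hair shaft keratin was among the 5, and at values this low the 27 genes cannot be said to be absent.

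**Figure D4:**
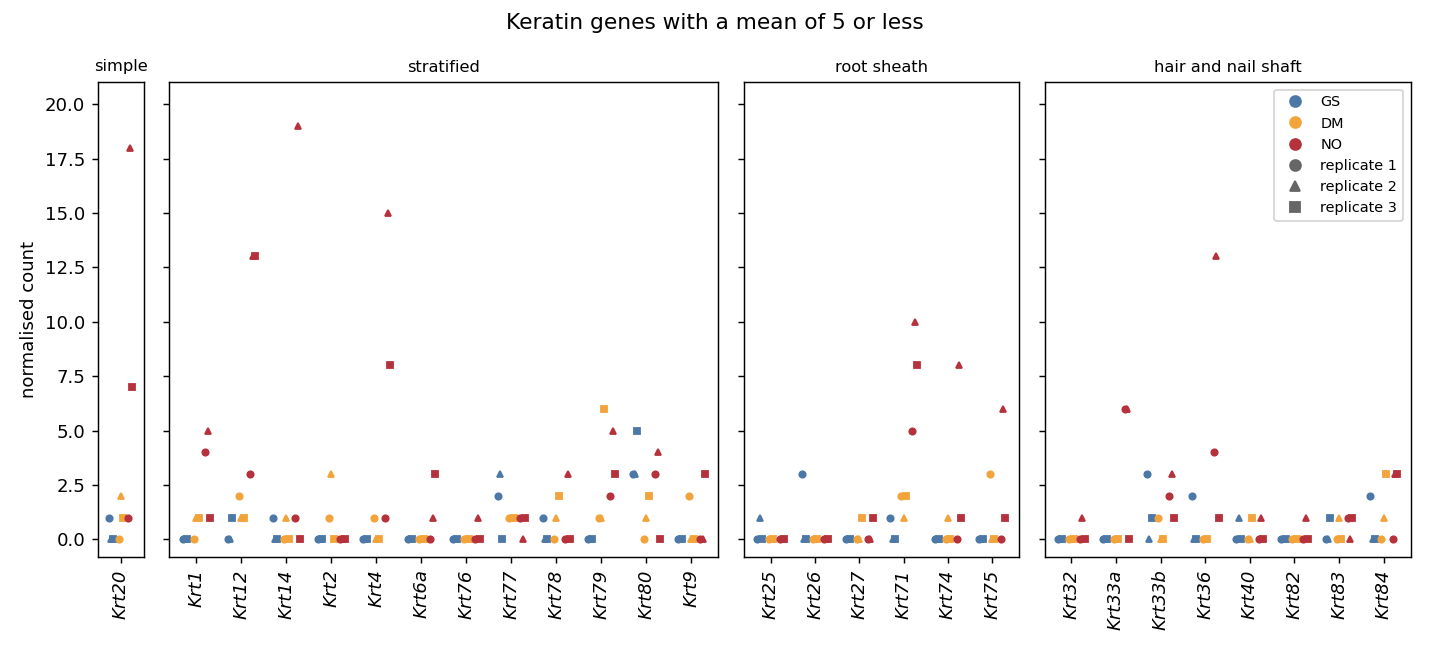
Normalised counts on a linear axis for the 27 keratins with a mean of 5 or less in each library, by class, with colour for the medium and symbol for the replicate number. Values above 6 occur only in NO libraries, for Krt20, Krt12, Krt14, Krt4, Krt71, Krt74 and Krt36.

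By position, the 3 type I genes Krt13 (chromosome 11, 100117327 to 100121566), Krt15 (100131758 to 100135928) and Krt19 (100140810 to 100148665) are next to one another among the keratins of the table, and each was called higher in NO in both comparisons. In NO vs DM, the call of Krt13 was lost without NO replicate 2 or 3, and that of Krt19 without NO replicate 3. Next to Krt13 lies the shaft keratin Krt36, and next to Krt19 lies Krt9, which had at most 3 normalised counts. Krt16, Krt17 and Krt42 follow further along (100246091 to 100269871), where Krt16 was called higher in NO, and Krt17 and Krt42 were not. Neither call of Krt16 held without NO replicate 2. On chromosome 15, Krt8 (101996698 to 102004482, minus strand) and Krt18 (102028180 to 102032027, plus strand) are neighbours transcribed away from each other. Krt5 (101707070 to 101712898) was called higher in NO in both comparisons and lies between Krt6a, at most 3 normalised counts, and Krt71. Krt5 and Krt15 were tested only through their NO values.

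Keratin filaments end at desmosomes and hemidesmosomes. Of 22 genes listed for these anchors, 21 were in the table and 16 were tested. In NO vs DM, 9 rose and none fell, with a median log2 fold change of 1.24 beside 0.001 for all tested genes, of which 6.78% were called higher. Dsc3 had a mean under 5 over GS and DM and was tested only through its NO values, and without it 8 of 15 rose. The 3 with the smallest adjusted p were Perp, a tetraspan protein of desmosomes, and the desmosomal cadherins Dsc3 and Dsc2. Perp had 197, 210 and 241 normalised counts in DM and 901, 4411 and 2165 in NO (log2 fold change 3.25 ± 0.41, adjusted p = 0.00195). Dsc3 had 1, 2 and 0 in DM and 16, 110 and 29 in NO (4.40 ± 0.69, adjusted p = 0.00382). Dsc2 had 13, 11 and 6 in DM and 46, 75 and 51 in NO (2.43 ± 0.39, adjusted p = 0.00415). The others called were the plaque proteins Dsp, Pkp3, Ppl, Evpl and Dst and the integrin Itgb4. Jup, Pkp4 and Pkp2 had log2 fold changes between -0.10 and 0.02. Without NO replicate 2, 7 rose, and Pkp3 and Dst were no longer called, while 3.46% of all tested genes were called higher. In NO vs GS 8 rose, against 10.1% of all tested genes, with a median of 1.02, and without NO replicate 2 there were 6, against 6.75% of all tested genes. In DM vs GS none was called in either direction, with a median of 0.22.

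**Figure D5:**
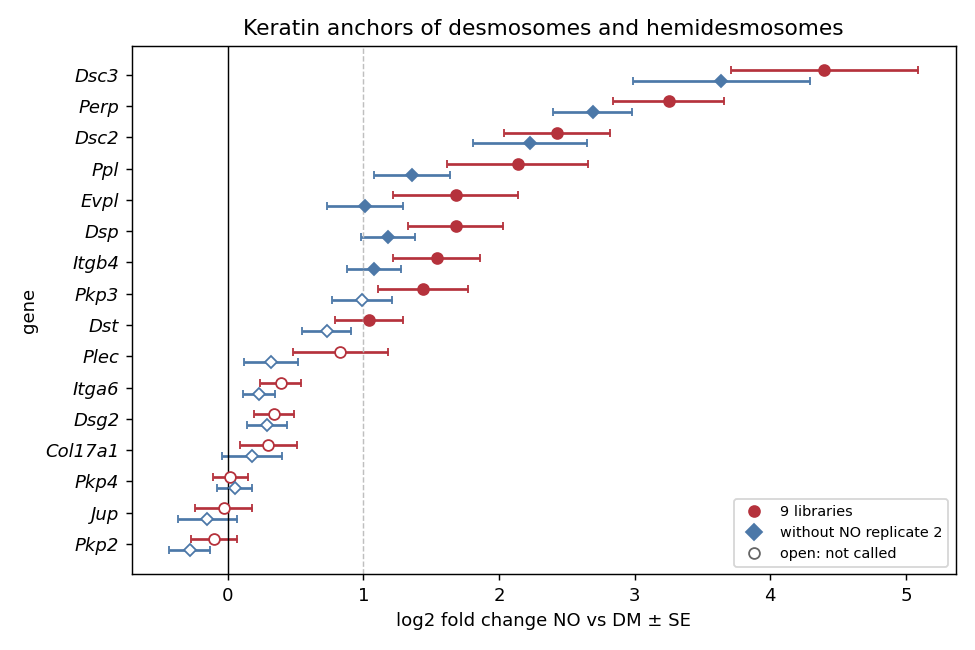
Log2 fold change ± SE in NO vs DM of the 16 tested anchor genes, from all 9 libraries (red circles) and without NO replicate 2 (blue diamonds), with filled symbols for called genes and a dashed line at a 2-fold change. With 9 libraries 9 genes are called, and without NO replicate 2 the called genes are Dsc3, Perp, Dsc2, Ppl, Evpl, Dsp and Itgb4.

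Intermediate filament genes other than keratins were counted in the same way. Of 17 tested, 5 rose and 1 fell in NO vs DM, with a median log2 fold change of 0.52, against 6.78% higher and 1.77% lower among all tested genes. Bfsp2, one of the 5, was tested only through its NO values. Synm, a large filament protein of muscle, had 263, 249 and 185 normalised counts in DM and 551, 1993 and 739 in NO (log2 fold change 2.02 ± 0.37, adjusted p = 0.00693). Nefm, a neurofilament subunit, had 26, 25 and 18 in DM and 56, 105 and 103 in NO (1.85 ± 0.35, adjusted p = 0.00824), and Des, the filament protein of muscle, 210, 277 and 315 against 418, 1015 and 630 (1.29 ± 0.30, adjusted p = 0.0185). Nefm and Nefl fell in DM vs GS, by 2.20 and 1.85 on the log2 scale (adjusted p = 0.00322 and 0.00398). In NO vs GS, 6 rose and none fell, against 10.1% and 1.64% of all tested genes. Without NO replicate 2, only Nefm and Synm were called in NO vs DM, and in NO vs GS 4 rose and Nefl fell (-1.25 on the log2 scale, adjusted p = 0.0101). In that fit 3.46% of all tested genes rose and 0.98% fell in NO vs DM, and 6.75% rose and 1.26% fell in NO vs GS. Vim, the filament protein of mesenchymal cells, had 6388, 6470 and 6113 in DM and 4961, 7665 and 5838 in NO (-0.06 ± 0.16, adjusted p = 0.831).

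Regulators of epithelial genes went in both directions. Of 15 tested, 2 rose and 3 fell in DM vs GS, 3 rose and 2 fell in NO vs GS, and 1 rose and 1 fell in NO vs DM. The shares of all tested genes that rose and fell were 2.94 and 1.27% (DM vs GS), 10.1 and 1.64% (NO vs GS) and 6.78 and 1.77% (NO vs DM), so that the 2 calls in NO vs DM were near that background. Tfap2c, which encodes an AP-2 factor, had values of 326, 262 and 275 in GS, 34, 41 and 52 in DM and 144, 426 and 186 in NO. It rose in NO vs DM by a log2 fold change of 2.41 ± 0.34 (adjusted p = 0.00286). Esrp1, an epithelial splicing regulator, had 62, 40 and 41 in GS, 272, 221 and 333 in DM and 132, 96 and 92 in NO, and its log2 fold change in NO vs DM was -1.36 ± 0.25 (adjusted p = 0.00752). In DM vs GS the 3 genes with the smallest adjusted p were Esrp1 (2.51 ± 0.25, adjusted p = 0.000219), Grhl2, a grainyhead factor of epithelia (2.60 ± 0.29, adjusted p = 0.000339), and Tfap2c (-2.75 ± 0.34, adjusted p = 0.000694). Trp63, the factor of basal stratified epithelium that is known for Krt5, had 14, 5 and 7 in GS, 1, 1 and 0 in DM and 2, 4 and 3 in NO. Trp63 lay below the minimum mean, and a relation between Trp63 and Krt5 was not tested. Without NO replicate 2, Tfap2c still rose in NO vs DM, and Esrp1 and Grhl2 fell, while 3.46% of all tested genes rose and 0.98% fell.

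Keratins are also made by cell types that a stem cell culture may form, so markers of such cells were counted. Their counts stand beside the same shares of all tested genes, 2.94 and 1.27% (DM vs GS), 10.1 and 1.64% (NO vs GS) and 6.78 and 1.77% (NO vs DM). Of the trophoblast list, 8 genes were tested and 3 rose in NO vs DM (Gata3, Tfap2c and Hand1). In DM vs GS 3 fell (Cdx2, Eomes and Tfap2c), and in NO vs GS 1 rose (Hand1) and 2 fell (Cdx2 and Eomes). Gata3 and Tfap2c were not called in NO vs GS, with log2 fold changes of 0.92 and -0.35. The summed level of the list was 1903 to 2115 in GS, 1463 to 1602 in DM and 1469 to 1750 in NO. Over all 9 libraries its most abundant members were Tead4 and Tfap2c, although in DM Tfap2c (mean 42.33) lay below Ascl2 (178.0) and Eomes (134.3). Psg17 had at most 1 normalised count, and Prl3d1 and Tpbpa were not in the table. Of the epidermal list, 5 genes were tested. Cdh3 rose in DM vs GS, Sfn and Cdh3 in NO vs GS, and Sfn and Dlx3 in NO vs DM, with a summed level of 984 to 1192 in GS, 1851 to 1988 in DM and 1944 to 4058 in NO. Its most abundant members were Cdh3 and Sfn, Ivl and Lor had at most 4, and Flg and Sprr1a were not in the table. Of the endoderm list, 7 genes were tested and Gata6 rose in NO vs both DM and GS, with a summed level of 351 to 474 in GS, 515 to 564 in DM and 581 to 1124 in NO and with Hnf4a and Gata4 as its most abundant members. Of the fibroblast list, 6 genes were tested and Col1a1 rose in NO vs DM, 3 rose in NO vs GS and Thy1 in DM vs GS, with a summed level of 335 to 507 in GS, 427 to 480 in DM and 411 to 462 in NO and with Pdgfrb and Thy1 as its most abundant members. Without NO replicate 2, the trophoblast list had 2 genes called higher in NO vs DM, the epidermal and endoderm lists 1 each and the fibroblast list none. In that fit 3.46% of all tested genes were called higher. Of the 10 pluripotency genes, Tfcp2l1 and Zfp42 were the most abundant over all 9 libraries, although in DM Tfcp2l1 lay below Zfp42, Esrrb and Pou5f1. In this list 1 fell in each comparison and 1 rose in DM vs GS. This list had its lowest sum in NO replicate 2, at 59927, against 92114 and 99104 in the other NO replicates. The part of these cell types in the keratin changes was not tested.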

How the data were processed

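Ribosomal RNA was depleted and libraries were sequenced on an Ion Torrent Proton instrument. According to the processing notes and methods, the authors aligned reads with STAR 2.4.0a, counted them per gene with featureCounts 1.4.5-p1, without reads that fitted several genes or places, and normalised with DESeq2. Use of the strand was not stated. Each deposited value is a score, a count that the authors scaled by a size factor and rounded to a whole number, so no count model was fitted. A deposited column with the sum over the samples, in other units, was not used. Samples were grouped by the medium in the labels. The members and gene lists were chosen with earlier results of these data known.

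Genes with a mean above 5 over the 9 samples were tested on log2(value + 1) by limma 3.58.1 (R 4.3.3). The model had 1 term per medium and 1 residual spread per gene, shared by all media, and moderation followed a mean-variance trend. Tests were two-sided with Benjamini-Hochberg adjustment over 18156 genes, and a gene was called at an adjusted p under 0.05 with a log2 change of 1 or more in size. Fold changes on this scale understate the changes of low genes. The procedure was tested on simulated data. Depth was estimated from the spacing of low values. Ratios against few reads used the estimated reads and 95% exact intervals, which cover counting error only, as does the floor of 3 reads. Lengths, positions and shared 50-base windows came from GENCODE M21 on GRCm38, the build of the authors. It lists 53 protein-coding keratins, of which 40 were in the table, and it names the Krt83 of the table Krt87 and holds Krt74 as a pseudogene.

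Replicate numbers recur in each medium. Deviations from the group means of same-numbered NO and DM samples correlated at 0.159, 0.167 and 0.296, and those of differently numbered ones at -0.223 to -0.025. In DM vs GS, however, differently numbered samples reached 0.22, so such values do not establish a pairing, and the labels state none. The main fit therefore had no replicate term, and the replicate block was an alternative. The text names every keratin above the minimum mean, the others by class with the highest value, and the 2 most abundant genes of each cell type list. Of each pathway list it names up to 3 genes called in NO vs DM and up to 3 called in DM vs GS, by smallest adjusted p. Trp63, Vim, Jup, Pkp2 and Pkp4, the full list of anchor genes called and single low keratins were named after their values were seen. The alternatives were a fit of 6 samples, the replicate block, no minimum mean or one of 50, pseudocounts of 0.5 and 5, no minimum fold, quantile normalisation, equal totals, no trend, precision weights, sums without division by length, and each sample left out. Counts for the lists and ratios for Krt5, Krt15 and Krt23 without NO replicate 2, and counts for keratins and lists with a mean above 5 in GS and DM, were added after seeing the data.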

Additional observations from a re-analysis of the deposited data

How the results depend on the processing

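The number of keratins called in DM vs GS (1) was 0 with quantile normalisation and 0 to 1 with 1 library left out. In NO vs GS (8) it was 4 with a minimum mean of 50, where fewer genes were tested, 12 with no minimum mean, 9 with scaling to equal totals and 5 to 8 with 1 library left out. In NO vs DM (7) it was 4 with only the 6 samples compared, 3 with a minimum mean of 50 and 4 to 9 with 1 library left out. Of all genes, 763 were called in DM vs GS, 505 with a minimum mean of 50, 1215 with no minimum fold change and 509 to 962 with 1 library left out. The same 4 values were 2127, 1206, 3640 and 1455 to 2831 for NO vs GS and 1552, 936, 2587 and 806 to 2512 for NO vs DM, which had 912 with only the 6 samples. With 1 library left out, the type I over type II ratio ranged from 1.12 to 1.13 in GS, 1.84 to 2.2 in DM and 1.93 to 3.06 in NO, and without division by length it was 0.99 in GS. The simple epithelial share ranged from 61.3 to 65.0% in GS, 51.3 to 53.8% in DM and 63.6 to 72.6% in NO.

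Directions turned only for log2 fold changes that had not passed the test. Equal totals turned Krt13 in DM vs GS to 0.01, and quantile normalisation turned Krt10 to -0.39 and Krt28 to -0.2 in NO vs GS and Krt10 to -0.12 in NO vs DM. With 1 library left out, the range crossed or reached 0 for Krt13 (-0.23 to 0.11), Krt28 (-0.54 to 0.25) and Krt5 (0.0 to 1.29) in DM vs GS, for Krt10 (-0.22 to 0.21), Krt42 (-0.48 to 0.06) and Krt28 (-0.07 to 0.72) in NO vs GS and for Krt10 (-0.06 to 0.37) in NO vs DM. Quantile normalisation took the median log2 fold change of all genes to -0.115 (NO vs GS) and -0.084 (NO vs DM). The cause of these differences was not tested.

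With the replicate block, Krt18 passed in NO vs DM (1.12 ± 0.33, adjusted p = 0.0488), giving 8 keratins, and no other keratin call changed. Same-numbered samples correlated at -0.178, 0.022 and -0.232 in DM vs GS and at -0.046, 0.05 and -0.106 in NO vs GS. These values gave no sign of pairing by number there, and the block left the counts of keratins at 1 and 8. Leaving out NO replicate 1 gave the most keratins in NO vs DM, with Krt18 and Krt222 added. Without the trend 6 keratins were called in NO vs DM and with precision weights 5. Depth limits the genes with values of a few reads, whose ratios have wide counting intervals.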
